A study of Mus musculus with 6 samples.

Results

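Transcripts of 8 genes of lytic cell death were followed in monocytes sorted from mouse melanomas. The genes are the gasdermins Gsdme and Gsdmd, the caspases Casp1, Casp4, Casp6, Casp8 and Casp9, and Ninj1. They were chosen by name, for the level of the delivered gene and of the enzymes that act on both gasdermins. All 8 symbols were found among the 56980 genes of the count table, each in 1 row, and all 8 were among the 16010 genes that passed the filter on low counts. The tumours were of B16F10-mCherry, a transplanted mouse melanoma line that carries a red fluorescent protein. One group (LNP-Gsdme, 3 libraries) came from tumours given lipid nanoparticles with Gsdme mRNA, and the other (LNP-GFP, 3 libraries) from tumours given lipid nanoparticles whose cargo is named only as GFP, a green fluorescent protein. The genotype is labelled WT in both groups, and both received nanoparticles, so neither group is untreated. Cells were sorted as CD11b+ Ly6Chi Ly6G-, a gate for inflammatory monocytes that leaves out neutrophils. Dose, time after delivery, age of the mice and any pooling of animals are facts not given in the sources used here. Nor do the labels tie each library to its own animal, so the p-values speak of the spread among these libraries alone, and that spread may be technical.

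Gasdermins are held inactive by their own carboxy-terminal part until a protease cuts the linker between both parts, after which the amino-terminal part assembles into pores in the plasma membrane. Caspase-1, switched on by inflammasomes, and the product of mouse Casp4 (caspase-11), which binds lipopolysaccharide in the cytosol, cut gasdermin D. Gasdermin E is cut downstream of caspase-8 and caspase-9, which can turn apoptosis into lytic death. Ninj1 acts last and breaks the membrane of the dying cell. All of these steps are controlled at the protein level, and transcript levels do not show how much protein was cut.

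The sequences below are the coding stretches on which this pathway turns, read from GENCODE M21 transcripts (GRCm38), each 39 bases long and written 5′ to 3′. In the gasdermins the capitals mark the codon of the aspartate after which caspases cut, which is codon 270 of Gsdme and codon 276 of Gsdmd. In the caspases they mark the codon of the catalytic cysteine. It is codon 284 of Casp1, 254 of Casp4, 146 of Casp6, 382 of Casp8 and 325 of Casp9. Codons were counted in the transcript with the longest reading frame among those that held the site.
Gsdme: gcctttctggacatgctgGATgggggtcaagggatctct
Gsdmd: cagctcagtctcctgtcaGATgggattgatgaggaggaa
Casp1: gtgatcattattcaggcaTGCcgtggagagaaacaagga
Casp4: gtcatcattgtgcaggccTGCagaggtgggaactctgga
Casp6: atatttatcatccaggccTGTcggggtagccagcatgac
Casp8: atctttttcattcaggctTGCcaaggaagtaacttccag
Casp9: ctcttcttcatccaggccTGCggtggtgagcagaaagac
The aspartate codon is the same in both gasdermins, and Casp6 is the caspase in this set that spells its cysteine TGT.

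Total counts were 15991826 to 18751784 in LNP-Gsdme and 20233559 to 22932095 in LNP-GFP. LNP-GFP 3 lay close to a weighted mean of LNP-GFP 1 and LNP-GFP 2 (weight 0.476 on LNP-GFP 1). Its median squared residual was 0.891 times the counting variance over 11030 genes, against 1.55 to 3.52 when each of the other 5 libraries was predicted from its group mates. The mean was 12 times the counting variance, against 17.8 to 42.2, so some genes were far from such a mean. Whether LNP-GFP 3 is independent of the other LNP-GFP libraries was not tested, and every SE and n = 3 takes it to be. Among the 8 genes, LNP-GFP 3 stood between LNP-GFP 1 and LNP-GFP 2 in 7, with Casp8 as the exception. Adjusted p-values without that library are given beside the genes that passed. Of 9 markers of Ly6C-high monocytes, 9 were detected in every library, with sums of 3590 to 4430 CPM (counts scaled to a common library size with TMM factors) in LNP-Gsdme and 3110 to 3800 CPM in LNP-GFP. Ly6c2, which encodes the gate's own antigen, averaged 1540 ± 271 CPM in LNP-Gsdme and 245 ± 29.7 CPM in LNP-GFP (SD over 3 libraries each), and Csf1r 842 ± 117 CPM in LNP-Gsdme and 1110 ± 141 CPM in LNP-GFP. Ly6g, the neutrophil antigen excluded by the gate, stayed at 0.155 to 0.618 CPM in LNP-Gsdme and at 0 to 0.366 CPM in LNP-GFP.

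The 8 genes covered a wide range of levels in the sorted cells. By the deposited FPKM (counts scaled by gene length and library total), Ninj1 was the highest at 121 ± 11.4 in LNP-Gsdme and 134 ± 2.66 in LNP-GFP (SD, n = 3 each). Gsdme was the lowest at 0.198 ± 0.0241 FPKM in LNP-Gsdme and 0.233 ± 0.0506 FPKM in LNP-GFP (SD, n = 3 each). In LNP-Gsdme the order of FPKM was Ninj1, Gsdmd, Casp8, Casp4, Casp1, Casp9, Casp6 and Gsdme, where Gsdmd and Casp8 overlapped, as did Casp9 and Casp6. In LNP-GFP the order was Ninj1, Casp8, Gsdmd, Casp4, Casp1, Casp6, Casp9 and Gsdme, where Casp8 overlapped with Gsdmd and Gsdmd with Casp4. These levels depend on the gene lengths that the authors used. For Gsdme the FPKM imply 15.8 kb, whereas its longest annotated coding transcript in GENCODE M21 has 4.38 kb. Per kilobase of the longest coding transcript, Gsdme averaged 0.708 CPM in LNP-Gsdme and 0.850 CPM in LNP-GFP and remained the lowest. On that scale Casp4 averaged 65.6 CPM in LNP-Gsdme and 62.8 CPM in LNP-GFP, above Casp8 at 45.5 CPM in LNP-Gsdme and 30.8 CPM in LNP-GFP.

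**Figure D1:**
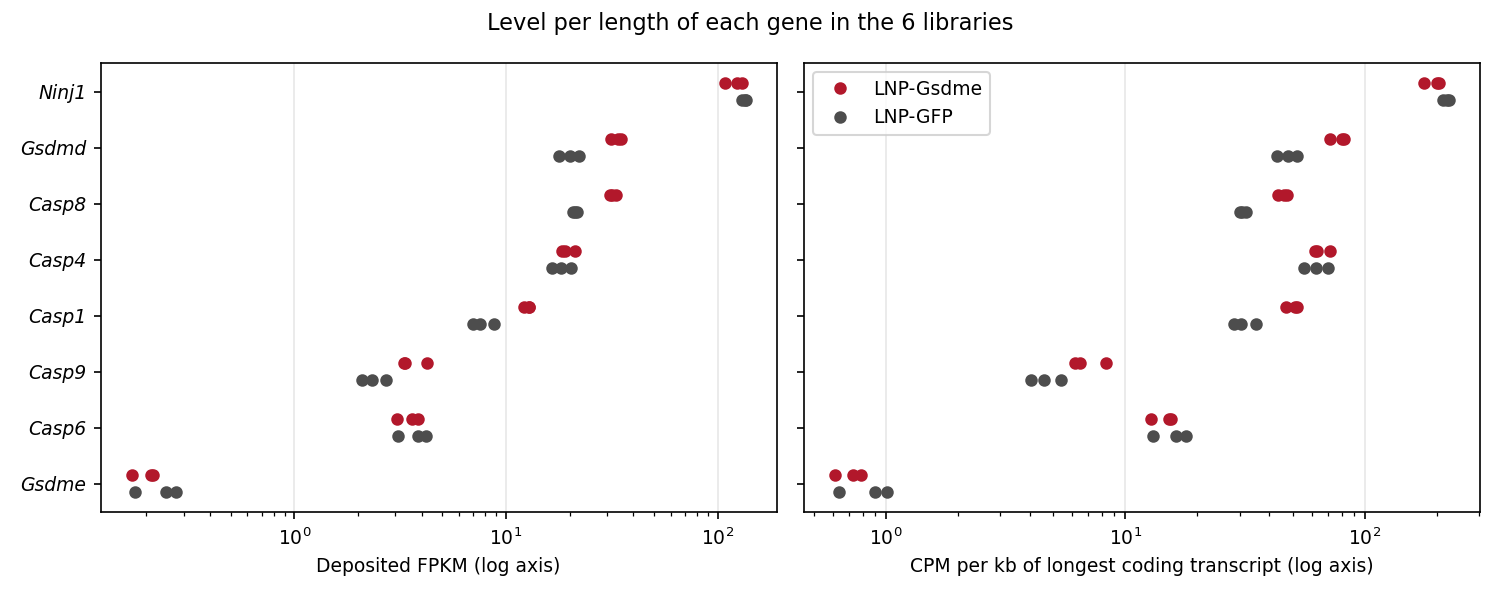
Level per length of the 8 genes in each library (points), with LNP-Gsdme drawn above LNP-GFP, as deposited FPKM (left) and as CPM per kilobase of the longest GENCODE M21 coding transcript (right), both on log axes. Ninj1 is highest and Gsdme lowest on both scales, while other genes change places, among them Casp4 and Casp8.

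Gsdme, whose mRNA was delivered to the tumours, did not pass the test in the sorted monocytes. The gene (ENSMUSG00000029821) lies on chromosome 6 from 50165868 to 50240842 (GRCm39). It had 61, 43 and 62 counts in LNP-Gsdme 1 to 3, against 64, 97 and 79 counts in LNP-GFP 1 to 3. The groups overlapped, since all 3 LNP-Gsdme libraries lay below LNP-GFP 2 and LNP-GFP 3 in CPM and LNP-GFP 1 lay among them. The fold of LNP-Gsdme over LNP-GFP was 0.834, with a 95% interval of 0.577 to 1.21 (edgeR quasi-likelihood adjusted p = 0.450, n = 3 per group). That interval holds both a modest rise and a fall, which these 6 libraries could not separate. Whether these counts would include the delivered mRNA was not tested, since its sequence was not among the data used here. The locus shares 10052 bases with that of Pals2, a gene for a cell polarity protein, which had 422 to 462 counts in LNP-Gsdme and 643 to 726 counts in LNP-GFP. The strand setting of the counting is unknown, so reads from the shared stretch cannot be told apart.

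In LNP-GFP, Gsdme and the markers of tumour cells had the same order of libraries, which several other marker sums shared. The summed markers of melanoma cells (7 of 7 detected in every library) stood at 124, 170 and 724 CPM in LNP-Gsdme 1 to 3 and at 324, 1750 and 1050 CPM in LNP-GFP 1 to 3. Gsdme stood at 3.43, 2.68 and 3.20 CPM in LNP-Gsdme 1 to 3 and at 2.79, 4.44 and 3.95 CPM in LNP-GFP 1 to 3. Within LNP-GFP both were lowest in library 1 and highest in library 2, while in LNP-Gsdme their orders differed. The summed markers of fibroblasts, conventional dendritic cells, neutrophils and Ly6C-high monocytes were also lowest in LNP-GFP 1 and highest in LNP-GFP 2. Those of T cells and NK cells were highest in LNP-GFP 1 and lowest in LNP-GFP 2, so the order was not particular to melanoma markers. The part of tumour cell RNA in the Gsdme counts was not tested, and in bulk samples fewer cells of a type and less RNA per cell cannot be told apart.

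Gsdmd, the gasdermin cut by inflammatory caspases, rose in LNP-Gsdme. The gene (ENSMUSG00000022575) lies on chromosome 15 from 75734176 to 75739257. It stood at 144, 147 and 128 CPM in LNP-Gsdme 1 to 3, against 93.8, 77.4 and 85.5 CPM in LNP-GFP 1 to 3. Every LNP-Gsdme library was above every LNP-GFP library. The log2 fold change was 0.71 ± 0.10 (SE over 3 against 3 libraries, edgeR quasi-likelihood adjusted p = 0.0132), a fold of 1.63 with a 95% interval of 1.38 to 1.92. Without LNP-GFP 3 it was 0.71 with an adjusted p = 0.0817 (edgeR), and the call was also lost without LNP-Gsdme 1 (0.0668) or LNP-Gsdme 2 (0.0663). The ratio of Gsdmd to Gsdme in FPKM was 157, 205 and 150 in LNP-Gsdme 1 to 3 and 126, 65.1 and 81.0 in LNP-GFP 1 to 3.

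Of the inflammatory caspases, Casp1 rose and its neighbour Casp4 did not pass. Both lie on chromosome 9, Casp1 (ENSMUSG00000025888) from 5298508 to 5307290 and Casp4 (ENSMUSG00000033538) from 5308828 to 5336783, and their loci do not overlap in the table. Casp1, which matures interleukin-1 beta and interleukin-18, stood at 78.0, 76.7 and 70.3 CPM in LNP-Gsdme 1 to 3, against 52.6, 42.7 and 45.4 CPM in LNP-GFP 1 to 3. The groups did not overlap. Its log2 fold change was 0.68 ± 0.10 (SE over 3 against 3 libraries, edgeR adjusted p = 0.0151). Without LNP-GFP 3 it was 0.66 with an adjusted p = 0.0891 (edgeR), and the call was also lost without LNP-Gsdme 1 (0.0762) or LNP-Gsdme 2 (0.0721).

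Casp4 stood at 90.8, 103 and 88.8 CPM in LNP-Gsdme 1 to 3, against 79.8, 101 and 89.7 CPM in LNP-GFP 1 to 3. The groups overlapped, with LNP-Gsdme 2 the highest library and LNP-GFP 1 the lowest. The log2 fold change was 0.06 ± 0.11 (SE over 3 against 3 libraries, edgeR adjusted p = 0.710), with a 95% interval of -0.19 to 0.32. The ratio of Casp1 to Casp4 in FPKM was 0.697, 0.606 and 0.642 in LNP-Gsdme 1 to 3 and 0.534, 0.345 and 0.411 in LNP-GFP 1 to 3. That ratio was higher in each LNP-Gsdme library than in any LNP-GFP library.

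Casp8, the initiator of the death receptor route that can also cut gasdermin D in mice, had the smallest p-value of the 8 genes. The gene (ENSMUSG00000026029) lies on chromosome 1 from 58834533 to 58886662, and the transcript Gm37760 inside it had 17 to 34 counts per library. It stood at 119, 122 and 112 CPM in LNP-Gsdme 1 to 3, against 79.2, 82.3 and 77.7 CPM in LNP-GFP 1 to 3. The libraries of a group lay close together, and the groups did not overlap. The log2 fold change was 0.56 ± 0.07 (SE over 3 against 3 libraries, edgeR adjusted p = 0.00991). Without LNP-GFP 3 it was 0.55 with an adjusted p = 0.0731 (edgeR), and the call was also lost without LNP-Gsdme 1 (0.0594) or LNP-Gsdme 2 (0.0543). Among the summed FPKM of the 5 caspases, Casp8 made up 44.8% in each LNP-Gsdme library and 38.8 to 41.1% in LNP-GFP. That share depends on the gene lengths behind the FPKM. Per kilobase of the longest coding transcript, Casp8 averaged 45.5 CPM in LNP-Gsdme, below Casp4 at 65.6 and Casp1 at 50.1 CPM. In LNP-GFP it averaged 30.8 CPM, below Casp4 at 62.8 and Casp1 at 31.3 CPM.

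Casp9 (ENSMUSG00000028914), the initiator of the mitochondrial route, lies on chromosome 4 from 141520923 to 141543287. It stood at 32.4, 25.3 and 24.1 CPM in LNP-Gsdme 1 to 3, against 15.7, 20.9 and 17.9 CPM in LNP-GFP 1 to 3. The groups did not overlap, and LNP-Gsdme 1 was apart from the other LNP-Gsdme libraries. Its log2 fold change of 0.58 ± 0.16 (SE over 3 against 3 libraries) was as large as that of Casp8 with a larger error, and it did not pass with edgeR (adjusted p = 0.0593). It passed with DESeq2 (adjusted p = 0.0179) and with scaling by library size alone (edgeR adjusted p = 0.0446). The call for this gene thus depended on the method, and without LNP-GFP 3 its log2 fold change was 0.58 with an adjusted p = 0.181 (edgeR).

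Casp6, an executioner caspase of apoptosis, did not pass. The gene (ENSMUSG00000027997) lies on chromosome 3 from 129695074 to 129707752. It stood at 22.1, 18.7 and 22.6 CPM in LNP-Gsdme 1 to 3, against 18.9, 26.2 and 23.7 CPM in LNP-GFP 1 to 3. The groups overlapped. The log2 fold change was -0.12 ± 0.15 (SE over 3 against 3 libraries, edgeR adjusted p = 0.609), with a 95% interval of -0.47 to 0.23.

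Ninj1 (ENSMUSG00000037966), the membrane rupture gene, lies on chromosome 13 from 49340961 to 49349720. It stood at 265, 232 and 271 CPM in LNP-Gsdme 1 to 3, against 280, 297 and 292 CPM in LNP-GFP 1 to 3. Every LNP-Gsdme library was below every LNP-GFP library, by a small margin between LNP-Gsdme 3 and LNP-GFP 1. The log2 fold change was -0.18 ± 0.08 (SE over 3 against 3 libraries, edgeR adjusted p = 0.199), and its 95% interval of -0.38 to 0.02 included 0. The ratio of Ninj1 to Gsdmd in FPKM was 3.65, 3.13 and 4.17 in LNP-Gsdme 1 to 3 and 5.90, 7.60 and 6.75 in LNP-GFP 1 to 3.

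**Figure D2:**
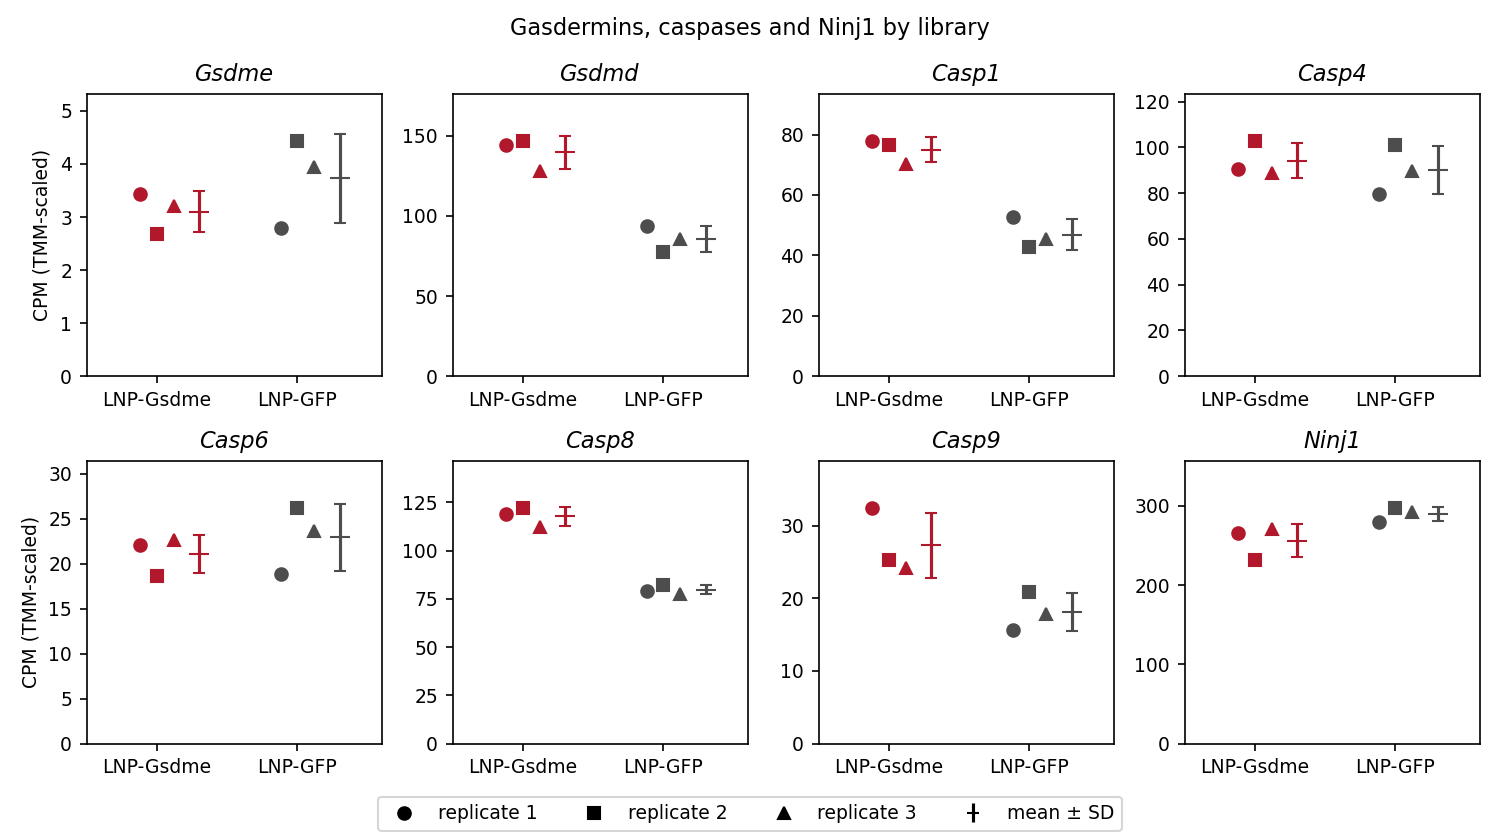
CPM of the 8 genes in each library (points, shape by replicate number) with the mean and SD of each group (n = 3), LNP-Gsdme at the left of LNP-GFP in every panel. Gsdmd, Casp1, Casp8 and Casp9 are higher in each LNP-Gsdme library than in any LNP-GFP library, and Gsdme, Casp4 and Casp6 overlap.

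Of the 8 genes, 3 rose (Gsdmd, Casp1 and Casp8) and 0 fell by edgeR. Over all 16010 genes tested, 6.3% rose and 5.32% fell, 11.6% in all. At an unadjusted p below 0.05, 4 of the 8 rose and 0 fell, DESeq2 called 4 and 0, and limma-voom 3 and 0. Over all genes, 16.1% were higher and 15.4% lower at an unadjusted p below 0.05, DESeq2 called 9.71% and 10% of its genes, and limma-voom 6.6% and 5.58%. The median log2 fold change of the 8 genes was 0.31, against -0.01 over all genes tested. The groups did not overlap in 5 of the 8 genes, where this was so in 37.8% of all genes. Without LNP-GFP 3, edgeR called 0 of the 8, with 4 higher at an unadjusted p below 0.05, and limma-voom called 0. DESeq2 still called Gsdmd, Casp1 and Casp8 without that library. Over all genes without it, edgeR called 0.395% higher and 0.148% lower (11.6% and 10.1% at an unadjusted p below 0.05), limma-voom 0.456% and 0.203%, and DESeq2 4.93% and 4.92%. With edgeR 0 were also called without LNP-Gsdme 1 or without LNP-Gsdme 2, and the log2 fold changes of the 3 genes ranged from 0.54 to 0.79 over all libraries left out in turn.

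**Figure D3:**
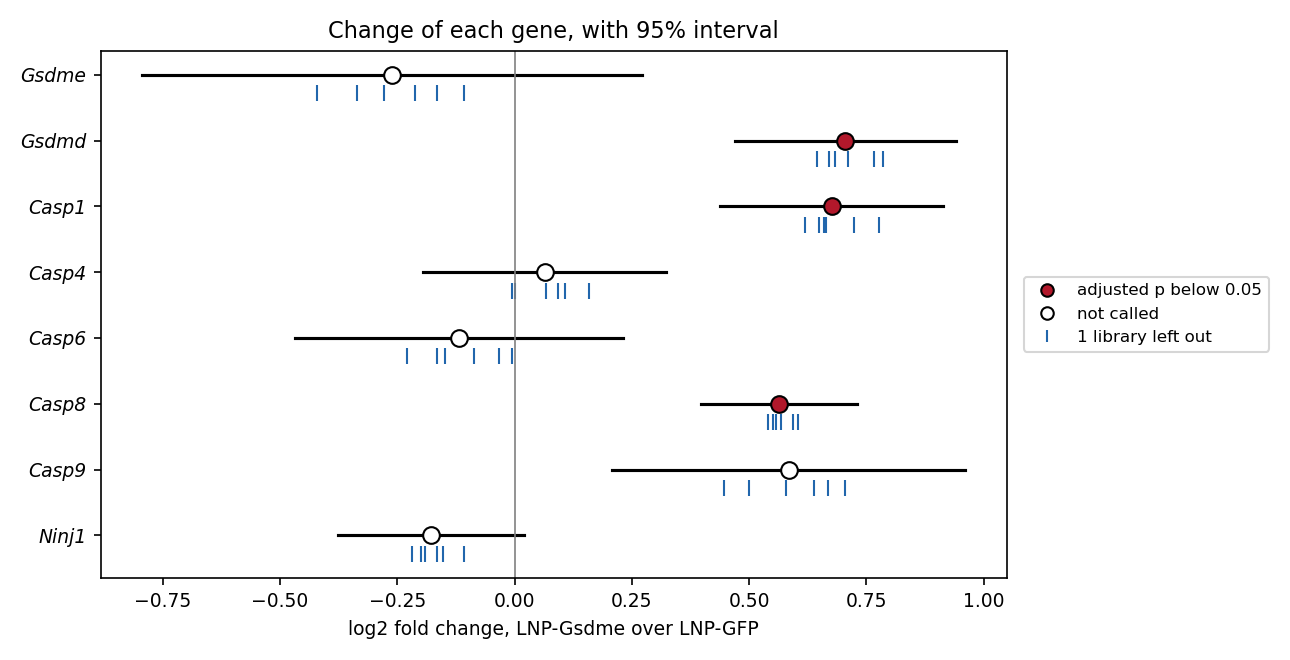
Log2 fold change of LNP-Gsdme over LNP-GFP for the 8 genes (circles, filled where the edgeR adjusted p is below 0.05) with 95% intervals (lines), and the same value with each library left out in turn (blue ticks). The blue ticks of Gsdmd, Casp1, Casp8 and Casp9 all lie above 0, and those of Casp4 reach -0.005.

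Of 74 other genes of the pathway, 62 could be tested, of which 16 rose and 0 fell by edgeR (25 and 3 at an unadjusted p below 0.05). DESeq2 called 19 that rose and 2 that fell (Nek7 and Il1a, both named after their values were seen), and limma-voom 16 and 0. The shares over all genes were 6.3% and 5.32% by edgeR (16.1% and 15.4% at an unadjusted p below 0.05). They were 9.71% and 10% by DESeq2, and 6.6% and 5.58% by limma-voom. The median log2 fold change of the 62 was 0.20. The lists were drawn up with earlier results of these data known. Without LNP-GFP 3, edgeR called 0 that rose (19 at an unadjusted p below 0.05) and 1 that fell (Nek7), against 8 and 1 by DESeq2 and 1 and 1 by limma-voom. The edgeR counts by list given next stand beside the same 6.3% that rose over all genes. No list was tested as a set, and without LNP-GFP 3 edgeR called 0 that rose in every list.

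Among 8 other gasdermins, Gsdmc was the one that could be tested. It had 1, 2 and 14 counts in LNP-Gsdme 1 to 3 and 12, 45 and 20 counts in LNP-GFP 1 to 3, and did not pass (edgeR adjusted p = 0.180). Its near-identical neighbours Gsdmc2, Gsdmc3 and Gsdmc4 had 0 to 4 counts, so the split of reads among them is uncertain. Gsdmd had 2350 to 2565 counts in LNP-Gsdme and 1691 to 2151 counts in LNP-GFP.

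Of 12 tested inflammasome sensors and adaptors, 4 rose by edgeR, beside 6.3% of all genes tested. Pycard, the adaptor that brings caspase-1 to a sensor, had a log2 fold change of 0.86 ± 0.16, Aim2, a sensor of cytosolic DNA, 0.58 ± 0.14, and Nlrp3, a sensor of membrane damage and ion loss, 0.35 ± 0.07 (SE over 3 against 3 libraries). The adjusted p was 0.0270, 0.0449 and 0.0293 for these 3 genes (edgeR), and 0.115, 0.131 and 0.125 without LNP-GFP 3. Nek7, a kinase that Nlrp3 needs, stood at 24.2, 23.8 and 22.4 CPM in LNP-Gsdme 1 to 3 and at 79.3, 93.9 and 28.7 CPM in LNP-GFP 1 to 3 (edgeR adjusted p = 0.0588).

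On the caspase-8 side, 1 of 7 genes rose. That gene was Tnfrsf1a, the main receptor for tumour necrosis factor, at 354, 386 and 350 CPM in LNP-Gsdme 1 to 3 and at 216, 225 and 219 CPM in LNP-GFP 1 to 3. Its log2 fold change was 0.72 ± 0.07 (SE over 3 against 3 libraries, edgeR adjusted p = 0.00584), and 0.73 with an adjusted p = 0.0522 without LNP-GFP 3. On the caspase-9 side, 3 of 10 rose, namely Bak1, which opens the outer mitochondrial membrane, Htra2, a protease released from mitochondria, and Apaf1, the scaffold of the apoptosome. Their log2 fold changes were 0.43, 0.48 and 0.35 with adjusted p of 0.0252, 0.0273 and 0.0388 (edgeR), and of 0.111, 0.124 and 0.135 without LNP-GFP 3.

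Of 6 genes upstream of Casp4 and Gsdmd, Irf2, Gbp3 and Gbp7 rose. Irf2, a transcription factor known to drive Gsdmd in mouse macrophages, stood at 81.4, 90.5 and 71.0 CPM in LNP-Gsdme 1 to 3 and at 49.5, 38.4 and 43.2 CPM in LNP-GFP 1 to 3. Its log2 fold change was 0.89 ± 0.13 (SE over 3 against 3 libraries, edgeR adjusted p = 0.0146), and the adjusted p without LNP-GFP 3 was 0.0859. Gbp3 and Gbp7, interferon-induced GTPases, had log2 fold changes of 0.31 and 0.64 (edgeR adjusted p = 0.0335 and 0.0360, and 0.144 and 0.135 without LNP-GFP 3), and belong to a family of close paralogs.

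Of 12 tested ESCRT-III and associated genes, whose products reseal membranes pierced by gasdermin pores, Chmp2a rose by a log2 fold change of 0.34 (edgeR adjusted p = 0.0254, and 0.122 without LNP-GFP 3) and 11 did not pass. The list's median was 0.10. The serpins Serpinb1a, Serpinb6a and Serpinb9 did not pass, and Serpinb9, an inhibitor of granzyme B, had a log2 fold change of 0.56 (edgeR adjusted p = 0.233). Of 4 genes for proteins that leave through the pores or the broken membrane, Il18, a cytokine that caspase-1 matures, rose with a log2 fold change of 1.21 ± 0.17 (SE over 3 against 3 libraries, edgeR adjusted p = 0.0140, and 0.0781 without LNP-GFP 3). Il1b, named after its values were seen, did not pass, with 1490, 1390 and 1250 CPM in LNP-Gsdme 1 to 3 and 1200, 1380 and 1300 CPM in LNP-GFP 1 to 3. Ninj2, the paralog of Ninj1, was too low to test.

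**Figure D4:**
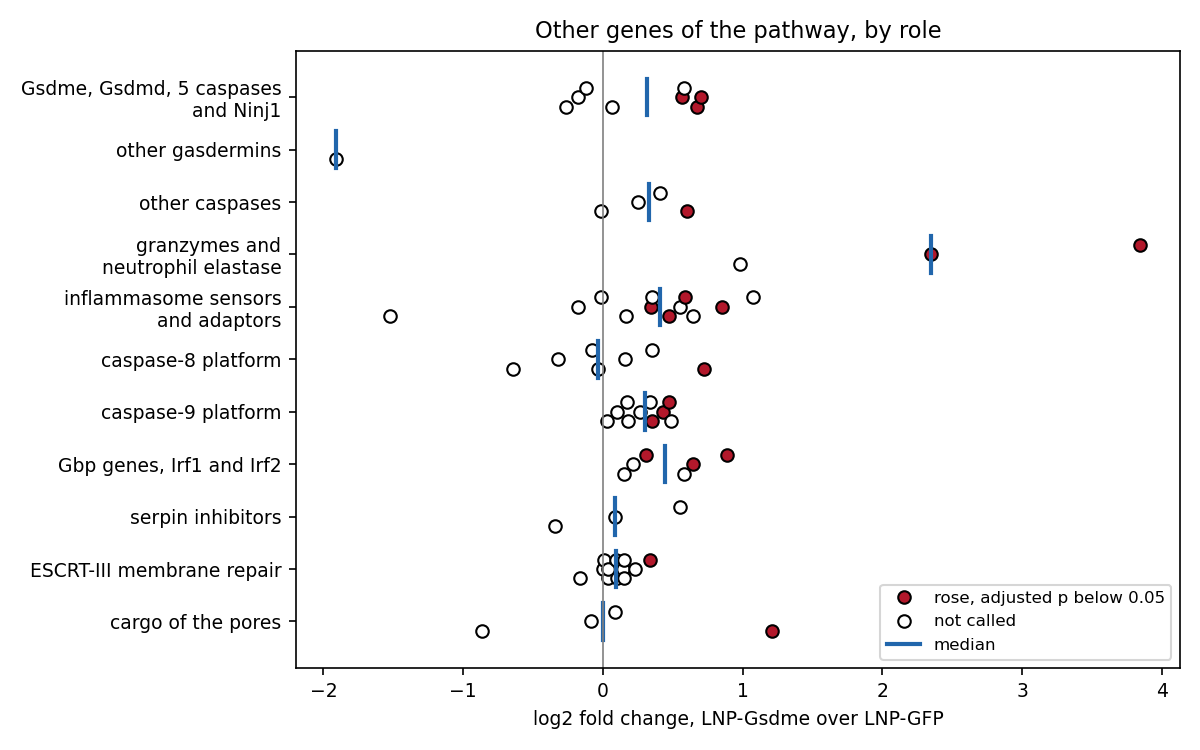
Log2 fold change of LNP-Gsdme over LNP-GFP for the 8 genes (top row) and for the 62 other pathway genes tested, by role, where each circle is a gene, filled if it rose at an edgeR adjusted p below 0.05, and the blue line is the list's median. Filled circles occur in 8 of the 10 lists of other genes, and the ESCRT-III genes lie between -0.17 and 0.34.

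Granzymes and neutrophil proteases that can cut gasdermins are known chiefly from other cell types. Which cells their transcripts came from in these libraries was not tested. Of 3 tested, Gzma rose, Gzmb did not pass, and Elane was called on few counts. Gzma, a granzyme of cytotoxic lymphocytes, stood at 42.9, 37.4 and 26.2 CPM in LNP-Gsdme 1 to 3 and at 9.90, 3.85 and 7.09 CPM in LNP-GFP 1 to 3 (edgeR adjusted p = 0.0173, and 0.0963 without LNP-GFP 3). Gzmb, which can cut gasdermin E and was named after its values were seen, stood at 359, 310 and 275 CPM in LNP-Gsdme 1 to 3 and at 268, 54.2 and 155 CPM in LNP-GFP 1 to 3 (edgeR adjusted p = 0.236). Elane, neutrophil elastase, had 11, 25 and 15 counts in LNP-Gsdme 1 to 3 and 0, 2 and 2 counts in LNP-GFP 1 to 3. It passed the filter on low counts through the LNP-Gsdme libraries, was left out by the stricter filter, and had no adjusted p with DESeq2. Its edgeR adjusted p was 0.0259, and 0.110 without LNP-GFP 3, and it is among the 16 that rose.

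Markers of other cell types moved with some of these genes. The summed markers of fibroblasts (7 of 7 detected in every library) stood at 2820, 2070 and 5420 CPM in LNP-Gsdme 1 to 3, against 8630, 9790 and 9190 CPM in LNP-GFP 1 to 3. The most abundant of them were Col1a1 and Col3a1, at means of 1380 and 1070 CPM in LNP-Gsdme and 3360 and 3230 CPM in LNP-GFP. Together with Col1a2, at means of 886 CPM in LNP-Gsdme and 2370 CPM in LNP-GFP, these collagen genes gave most of the sum. Dcn and Lum also did not overlap between the groups. Pdgfra and Pdgfrb overlapped and did not pass (edgeR adjusted p = 0.309 and 0.418). Gsdmd followed the reverse order of the fibroblast sum over all 6 libraries, highest in LNP-Gsdme 2 and lowest in LNP-GFP 2. Summed T cell markers (7 of 7) ranged from 398 to 511 CPM in LNP-Gsdme and from 159 to 464 CPM in LNP-GFP. Summed NK cell markers (5 of 6 detected in every library) ranged from 107 to 139 CPM in LNP-Gsdme and from 32.7 to 119 CPM in LNP-GFP.

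LNP-GFP 1 had 464 CPM of T cell, 119 CPM of NK cell and 324 CPM of melanoma markers, each within the range of the LNP-Gsdme libraries. Prf1 gave 101 of that 119 CPM, and other NK cell markers differed. In LNP-GFP 1, Klrb1c at 1.61 CPM and Klra8 at 1.05 CPM were below every LNP-Gsdme library (2.27 to 3.31 and 1.07 to 2.50 CPM). Klre1, at 4.75 CPM, was above them (2.22 to 3.99 CPM), and Ncr1 and Eomes were within their range. The fibroblast and conventional dendritic cell sums of LNP-GFP 1, at 8630 and 121 CPM, were above those of every LNP-Gsdme library. Its neutrophil sum of 6.11 CPM was below that of every LNP-Gsdme library. In LNP-GFP 1, Gsdmd, Casp1 and Casp8 stood at 93.8, 52.6 and 79.2 CPM, below the lowest LNP-Gsdme library for each gene. Summed markers of conventional dendritic cells (6 of 6) were 67.4 to 104 CPM in LNP-Gsdme and 121 to 162 CPM in LNP-GFP. Those of neutrophils (5 of 6) were 10.7 to 25.6 CPM in LNP-Gsdme and 6.11 to 38.3 CPM in LNP-GFP, and those of B cells (2 of 4) were 3.25 to 5 CPM in LNP-Gsdme and 3.43 to 4.75 CPM in LNP-GFP. The part of RNA from any of these other cell types in the differences of the 8 genes was not tested.

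**Figure D5:**
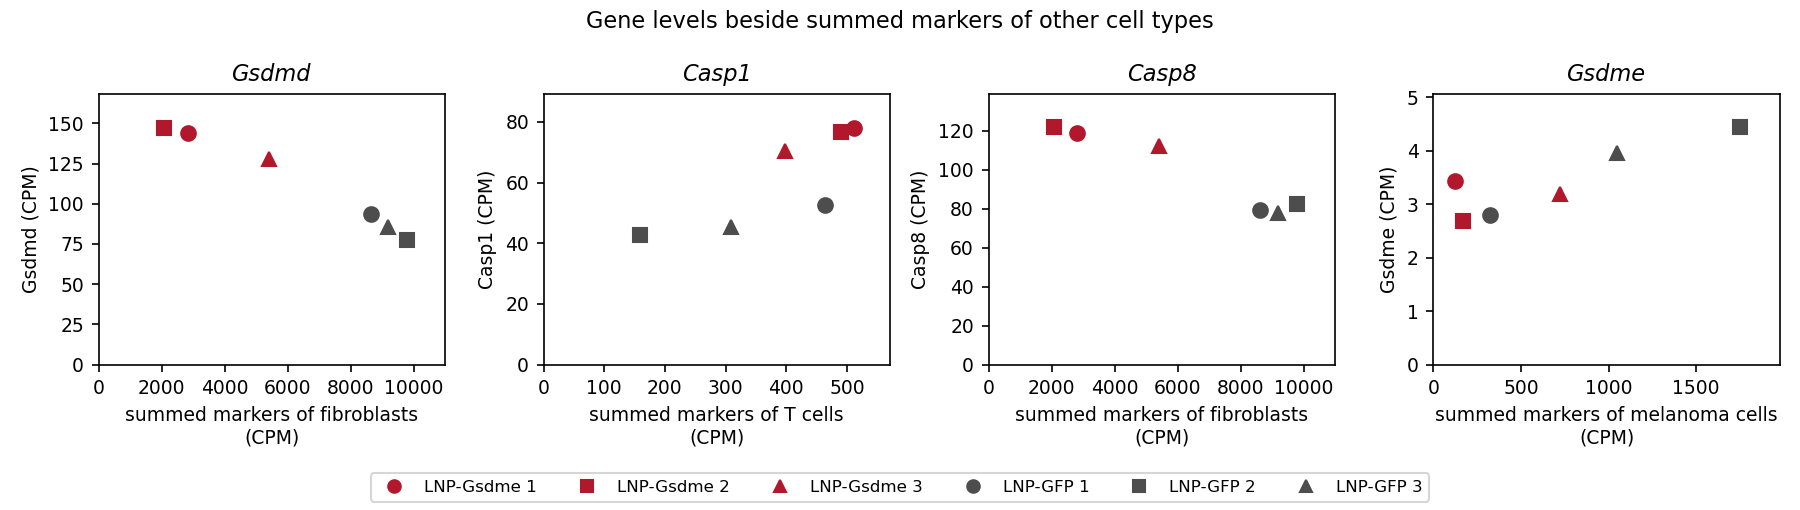
CPM of 4 genes against summed CPM of cell type markers in the 6 libraries (red for LNP-Gsdme, grey for LNP-GFP, shape by replicate number). LNP-GFP 1 has T cell markers at 464 CPM, within the LNP-Gsdme range of 398 to 511, with Casp1 at 52.6 CPM. The fibroblast sums, mostly of collagen genes, do not overlap between the groups.

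The genes whose log2 CPM followed Gsdmd most closely over the 6 libraries were Cd180, a Toll-like receptor homologue (Pearson r = 0.9992), Rgs14 (0.9991) and Sugp1 (0.9986), among 9178 genes compared. Those closest to Gsdme were Anapc7, a subunit of the anaphase-promoting complex (0.9938), Wdr75 (0.9900) and Net1 (0.9867), among 9179 genes. These values describe 6 libraries in 2 groups, and for Gsdmd they hold the difference between the groups. They are the highest among all genes compared, picked for being so. Whether genes with no link to Gsdme or Gsdmd would reach such values was not tested.

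Start-site windows of 250 bases before to 50 bases after the annotated start were matched by symbol for 7 of the 8 genes, all but Gsdmd, in RefSeq (GRCm38.p6). The core of the interferon-stimulated response element, the STAT element TTCNNNGAA and the PU.1 site GAGGAAGT, searched on both strands, were in 0 of their 8 windows. Of 32851 windows of that length, 3.44%, 8.3% and 3.2% held these letters. This says only that these letters are not in these windows.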

How the data were processed

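RNA was sequenced from 3 LNP-Gsdme and 3 LNP-GFP libraries, built as paired-end TruSeq libraries from column-extracted, DNase-treated RNA per the labels' protocols. The authors deposited raw counts (whole numbers, not normalized) and FPKM for each library in 1 table. Coordinates are on GRCm39, per the submitters' processing notes. Not given in the sources used here are the read aligner, the annotation release, how reads were assigned to genes and whether strand was used. The deposited FPKM are the counts over a gene length and the library total (implied lengths differed by at most 0.00178% over 11356 genes). They were used for levels between genes, not for tests.

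Counts were tested in R 4.3.3 with edgeR 4.0.16 (filterByExpr by group, TMM, robust quasi-likelihood test, two-sided), adjusted with the Benjamini-Hochberg method over all 16010 genes tested, and called below 0.05. CPM use library totals of tested genes times TMM factors (0.980 to 1.04). The SE of a log2 fold change is its size over the root of the F statistic, and its 95% interval uses the test's degrees of freedom. The fit was tested on simulated data. Depth per library was 15991826 to 22932095 counts, which left the lowest of the 8 genes with 43 to 97.

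Groups come from the treatment label. Alternatives were RLE, upper-quartile and library-size scaling, no filter and a stricter filter (a mean of 1 CPM and 10 counts in 3 libraries), DESeq2 1.42.0, limma-voom (limma 3.58.1), no robust fitting, a threshold of 0.01, the replicate number as a block, and each library left out. DESeq2 and limma-voom with each library left out were added after seeing the data. The members and lists were chosen with earlier results of these data known. In each pathway list, up to 3 called genes with the smallest p were named, or the 1 with the highest level where 0 were called. Markers are given as sums over their list, with the 2 highest genes for monocytes and fibroblasts. Nek7, Xiap, Gzmb, Il1a and Il1b were added after their values were seen. So were the single NK cell markers and the other fibroblast markers. The genes most like Gsdme and Gsdmd were the 3 with the highest Pearson correlation of log2 CPM (prior count 2) among genes whose mean log2 CPM reached 3, leaving out predicted genes. Whether same-numbered libraries pair was not settled, and their correlations are given in the closing section. Members of the list of other caspases are not reported here by name and enter only the counts and the plot over all pathway genes.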

Additional observations from a re-analysis of the deposited data

How the results depend on the processing

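Gsdmd, Casp1 and Casp8 were higher in LNP-Gsdme under every alternative run for them, and passed in 11 of 15 each. The count of the 8 genes that rose was 3, and it was 0 with the replicate number as a block (4 at an unadjusted p below 0.05), 1 at a threshold of 0.01, 0 to 3 with a library left out by edgeR, and 3 to 4 with a library left out by DESeq2. With the replicate block the adjusted p was 0.0605 for Gsdmd, 0.0588 for Casp1 and 0.0588 for Casp8. Same-numbered libraries correlated in their deviations from the group means by 0.214, -0.237 and 0.0315, and differently numbered ones by -0.326 to 0.319. With 3 libraries per group, these values cannot settle whether same-numbered libraries belong together. The block also leaves fewer degrees of freedom. Casp4 had a log2 fold change of -0.005 when LNP-GFP 1 was dropped, and -0.005 to 0.158 across all libraries left out. Of all genes, 1008 rose and 851 fell. These counts were 103 and 52 with the replicate block and 131 and 52 at a threshold of 0.01, DESeq2 called 1522 that fell, and leaving out a library gave 64 to 1625 and 24 to 1216 by edgeR. The lowest of these came without LNP-GFP 3 (64 and 24), LNP-Gsdme 1 (107 and 46) and LNP-Gsdme 2 (119 and 68), and 594 and 353 were called without LNP-GFP 2. Of the other pathway genes 16 rose and 0 fell, against 1 that rose with the replicate block, 1 that rose at 0.01, 2 that fell with DESeq2, and, with a library left out, 0 to 21 that rose and 0 to 2 that fell by edgeR, 8 to 22 (9 without LNP-Gsdme 2) and 1 to 5 by DESeq2, and 1 to 22 and 0 to 2 by limma-voom. The cause of these moves was not tested, beyond there being fewer libraries or degrees of freedom. Gsdme had 43 to 97 counts per library, and the parts of counting error and of spread between libraries in its interval were not separated. Intervals and p-values cover these 6 libraries only.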

Other observations

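Xiap, an inhibitor of caspase-9, did not pass (edgeR adjusted p = 0.851), but LNP-GFP 1 stood far from the other 5 libraries. It had 75.6, 77.2 and 61.0 CPM in LNP-Gsdme 1 to 3 and 17.2, 86.4 and 86.5 CPM in LNP-GFP 1 to 3. Nek7 set LNP-GFP 3 apart from its own group, at 28.7 CPM against 79.3 and 93.9 CPM in LNP-GFP 1 and 2. Unlike for Xiap, the library apart from its group lay near the LNP-Gsdme libraries, which had 22.4 to 24.2 CPM of Nek7. In Nek7, LNP-GFP 3 lay outside the range of the other LNP-GFP libraries, unlike in 7 of the 8 genes described above. Both genes were named after their values were seen.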
